A study of Saccharomyces cerevisiae with 7 samples.

Results

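Isolated weak Spo11 sites are positions away from meiotic hotspots at which both strands carried protein-linked 5′ ends in SPO11+ cells. They were selected on the measured hits themselves. Raw hits of the SPO11+ libraries were summed, and a site is a Watson position together with the Crick position 1 bp higher, with a hit on each strand and 8 hits or more in all. It also had to lie over 1000 bp from any hot stretch, where HpM averaged over the 5 replicates and smoothed over about 200 bp (Hann weights) passed 3 times its genome mean. On the 15 nuclear chromosomes other than III, 20905 of 275512 such pairs (7.59%) met the rule. A further 46960 pairs lay within 1000 bp of a hot stretch and 207647 inside one.

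The libraries came from Saccharomyces cerevisiae cells taken 6 h into meiosis and mapped by CC-seq, which places the 5′ ends of DNA that is covalently linked to protein at single nucleotides. SPO11+ cells were sae2∆, as were the controls, and were represented by 5 biological replicates in 6 libraries, with the fifth replicate sequenced as 2 technical replicates that were summed. The control was 1 library of sae2∆ spo11-Y135F cells, whose Spo11 lacks the catalytic tyrosine. The labels give sae2 as the genotype of the fifth replicate, but its maps were deposited under a name that says WT. Total hits were 3177210, 8564017, 4502308, 3559541 and 3569290 in SPO11+ replicates 1 to 5, and 2326054 in spo11-Y135F. Values are given as raw hits or as HpM, hits per 1000000 hits of a library.

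Spo11 is related to the catalytic subunit of archaeal topoisomerase VI and starts meiotic recombination by cutting both strands of the duplex, with 1 protomer left on each 5′ end. In sae2∆ cells these protein-linked ends are not released, so they accumulate. In budding yeast most cutting falls in nucleosome-depleted promoters, in narrow hotspots that are separated by long cold stretches. The cleavages of the pair of protomers are staggered, so a double-strand break gives a Watson and a Crick end that are offset from each other.

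The rule left 6052700 bp over 1000 bp from a hot stretch, 54.3% of the 11156985 bp that were not masked. This eligible length held 13.7% ± 2.64 of the SPO11+ hits (SD, n = 5) and 53.9% of the spo11-Y135F hits. The share was 9.52% in SPO11+ replicate 2, the deepest library, and between 13.5% and 16.2% in the other replicates. Since HpM expresses hits relative to their own library, a given level of background makes a higher HpM in spo11-Y135F than in SPO11+. Levels in HpM are given beside those of the control as values only, and SPO11+ is set against the control through ratios to the flanks or to the rest of the eligible length within each library.

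The sites were weak by construction. Their summed hits ranged from 8 to 215, with a median of 14 and quartiles of 10 and 22. By comparison, pairs inside hot stretches had a median of 24 hits and a maximum of 20038. Pairs at 1 to 1000 bp from a hot stretch had a median of 12 and an upper quartile of 20, both below those of the sites. The bottom quartile of hotspots, 671 of 2682, held 12793 pairs with a median of 20 hits. There were 7955 sites with 8 to 11 hits (38.1%), 4112 with 12 to 15, 5943 with 16 to 31 and 2895 with 32 or more (13.8%). At the edge of the rule, 2594 sites had exactly 8 hits and 3590 pairs in the same territory had 7. Likewise, 1042 sites lay within 100 bp outside the limit of 1000 bp and 976 pairs within 100 bp inside it, with a median of 13 hits in each set. The median distance to a hot stretch was 2448 bp, with quartiles of 1628 and 3986 bp and a maximum of 43895 bp. The smoothed map at the sites was at a median of 1.49 times its genome mean, and at 0.200 times over the eligible length as a whole.

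The sites held 1.78%, 2.03%, 1.61%, 1.83% and 1.58% of the hits in SPO11+ replicates 1 to 5, against 0.234% in spo11-Y135F (95% Wilson interval, 0.228% to 0.241%, counting error only). Within the eligible length, the sites took up 0.345% of the strand positions. They carried 13.5% ± 4.52 of the SPO11+ hits there, with 21.3% in replicate 2 and 9.93% to 13.5% in the others, and 0.434% of the spo11-Y135F hits there. The SPO11+ shares describe how the sites were selected, while the spo11-Y135F library took no part in the selection.

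Although they are far from hotspots, the sites were not isolated from each other. Of the 20905 sites, 98.7% had another site within 200 bp, and only 268 (1.28%) stood alone at that distance. Joining sites at most 200 bp apart gave 1931 chains, with a median of 8 sites, quartiles of 3 and 16, and a maximum of 110. The 1276 chains of 5 sites or more held 93.4% of all sites. Chains of more than 1 site spanned a median of 112 bp (quartiles, 72 and 150 bp), and the longest spanned 807 bp. Neighbouring chains lay a median of 3591.5 bp apart. The label "isolated" thus applies to the distance from hotspots only, and most sites belonged to compact clusters with levels below the hotspot threshold.

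Chains of 5 sites or more carried 18.3, 18.9, 17.5, 18.3 and 17.1 HpM (medians over chains) in SPO11+ replicates 1 to 5, against 12.7 HpM in spo11-Y135F. The bottom quartile of hotspots carried a median of 32.9 ± 2.14 HpM in SPO11+ (SD, n = 5), against 8.17 HpM in spo11-Y135F, over a median width of 86 bp where the chains spanned 125 bp. Chains were then drawn from 4 replicates and read in the replicate left out. Hit density inside them was 6.59, 15.0, 5.95, 8.15 and 7.12 times that of the rest of the eligible length for replicates 1 to 5. The spo11-Y135F library at the same chains gave 1.12 to 1.13 in the 5 sets. On the log2 scale the SPO11+ ratio was 3.01 ± 0.53 (SD, n = 5) and above 0 in 5 of 5 replicates, with p = 0.0625 in a two-sided exact sign-flip test, the smallest p that 5 replicates allow. At the chains of the full set, spo11-Y135F had 1.13 times the density of the rest of the eligible length (95% interval, 1.12 to 1.14).

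Sites were counted by region, with ORFs and the gaps between them classed by the orientation of the flanking genes. Divergent gaps lie between a pair of gene starts, tandem gaps between an end and a start, and convergent gaps between a pair of gene ends, so that the divergent and tandem classes contain promoters. Promoter-containing gaps held 17720 of the 20905 sites (84.8%) in 14.7% of the eligible length. Divergent gaps held 5255 sites (25.1%) in 3.84% of the length, and tandem gaps held 12465 (59.6%) in 10.8%. Only 819 sites (3.92%) were in convergent gaps, which made up 5.73% of the length. The 2358 sites in ORFs (11.3%) were spread over 79.4% of the length, and 8 lay between the last ORF and a chromosome end. Density was 22.6 sites per kb in divergent gaps, 19.0 in tandem gaps, 2.36 in convergent gaps and 0.491 in ORFs, so that it was 40.6-fold higher in promoter-containing gaps than in ORFs. The spo11-Y135F hits over the eligible length followed its composition, with 14.9% in promoter-containing gaps and 79.0% in ORFs.

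The promoter share of the hits at the sites was 86.7%, 86.8%, 85.8%, 86.9% and 86.1% in SPO11+ replicates 1 to 5, and 84.3% in spo11-Y135F, since it is set by where the chosen sites lie. When the sites were chosen without 1 replicate in turn, 85.7% ± 0.447 of them (SD, n = 5 sets that overlap) were in promoter-containing gaps. Pairs inside hot stretches were in these gaps in 88.3% of cases, and pairs in the bottom quartile of hotspots in 91.7%. Pairs at 1 to 1000 bp from a hot stretch were in promoter-containing gaps in 64.5% of cases and in ORFs in 33.5%. The make-up also differed, since tandem gaps held 59.6% of the isolated weak sites but 40.8% of the pairs inside hot stretches, where divergent gaps held 47.5%. Hot stretches themselves remove the promoters around them from the eligible length, and no test was made of these shares.

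**Figure D1:**
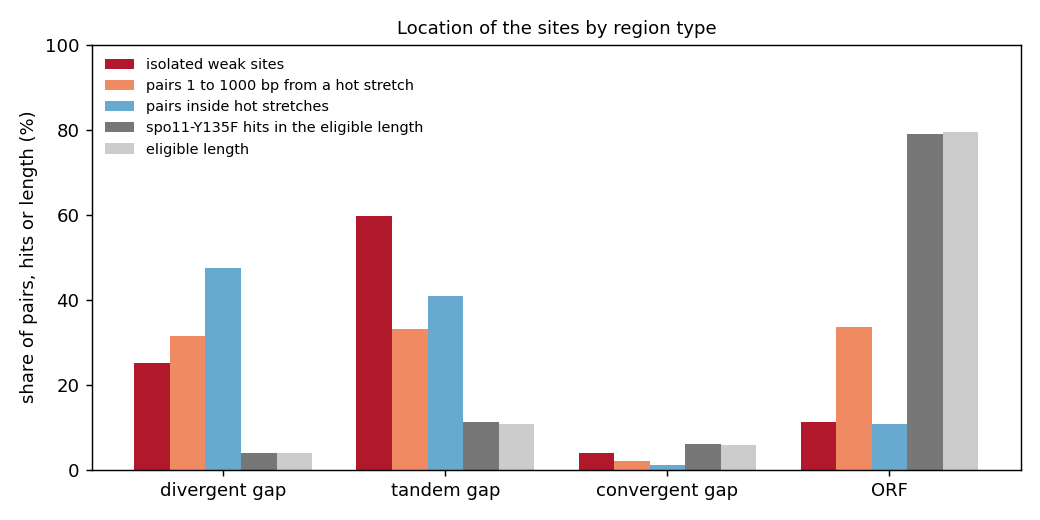
Share of isolated weak sites, of pairs 1 to 1000 bp from a hot stretch, of pairs inside hot stretches, of spo11-Y135F hits in the eligible length and of that length itself in divergent, tandem and convergent gaps and in ORFs (percent). The isolated weak sites reach 59.6% in tandem gaps and 11.3% in ORFs, while spo11-Y135F hits follow the eligible length.

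In gaps that lay wholly within the eligible length, presence of a site depended on orientation. At least 1 site was found in 255 of 293 divergent gaps (87.0%, 95% Wilson interval 82.7% to 90.4%) and in 861 of 1005 tandem gaps (85.7%, 83.4% to 87.7%), whose intervals overlap. The same was true of 77 of 939 convergent gaps (8.20%, 6.61% to 10.1%) and of 211 of 1532 whole ORFs (13.8%, 12.1% to 15.6%). Divergent gaps had a median of 14 sites, tandem gaps 9, and convergent gaps and ORFs 0. Width bore on this in convergent gaps, where the share with a site was 1.56% in those of 50 bp to under 200 bp, 7.44% from 200 to under 400 bp, 18.7% from 400 to under 800 bp and 45.2% in the 42 gaps of 800 bp or more. In promoter-containing gaps it was high at every width, from 60.6% in the narrowest divergent gaps to 98.8% in those of 400 to under 800 bp.

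Sites in promoter-containing gaps lay a median of 179 bp from the nearest start codon (quartiles, 120 and 277 bp), and 71.4% were 100 to 400 bp away. The median was 231 bp for pairs inside hot stretches (143 and 359 bp) and 171 bp for those in the bottom quartile of hotspots. In 25 bp bins, density was highest in the bin centred at -138 bp from the start codon, with 50.0 sites per kb, and for pairs inside hot stretches in that at -163 bp. In tandem gaps, 60.2% of the 12465 sites were nearer to the end of the gap at the start codon. Cut into 5 equal parts from that end, the gaps held 11.5%, 30.2%, 33.6%, 18.2% and 6.43% of them. The middle part thus held the most, and the parts at both ends held the least. These positions rest on a gene table of assembly R64 set on the authors' coordinates, so an error of some base pairs at gene ends is possible.

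**Figure D2:**
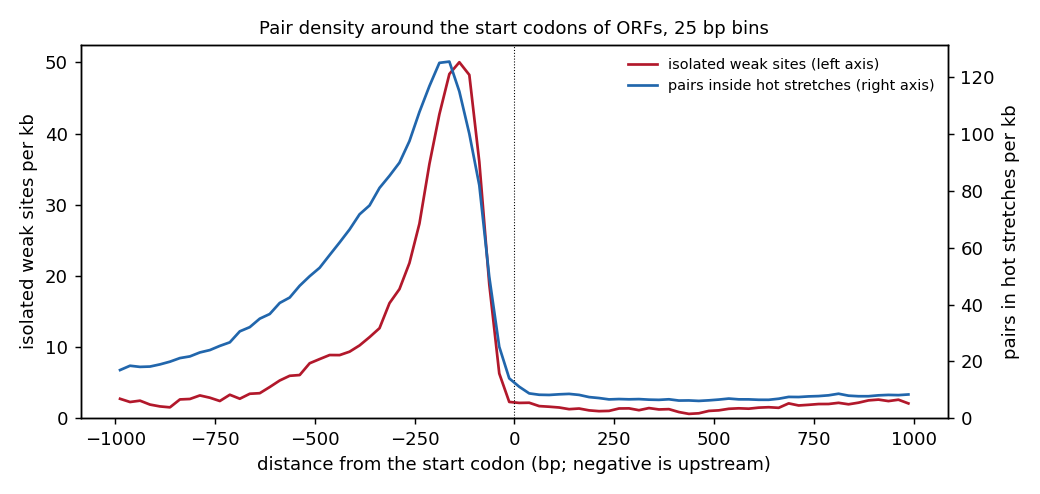
Density of isolated weak sites (left axis, sites per kb of eligible length) and of pairs inside hot stretches (right axis, pairs per kb) against the distance from the start codon of ORFs in 25 bp bins, upstream to the left. Both rise to a peak upstream of the start codon, at -138 bp for the isolated weak sites with 50.0 sites per kb.

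Within ORFs the sites were denser at the ends than in the interior, in short ORFs than in long ones, and in a minority of genes. Density was 1.90 sites per kb in the first 100 bp (348 sites), 1.55 in the last 100 bp (506 sites) and 0.350 in the interior (1504 sites). In ORFs wholly within the eligible length, density was 12.4 sites per kb in those of 50 to under 200 bp and 5.81 from 200 to under 400 bp. It was 1.33 from 400 to under 800 bp and 0.392 at 800 bp or more. In all, 426 ORFs held a site and 136 held a single site, while the 81 ORFs with 10 or more held 1319 sites (55.9% of the sites in ORFs). BMS1, which encodes a GTPase of small ribosomal subunit assembly, held 61. It was followed by PEX22, a peroxisome import factor, with 32, URA8, a CTP synthase, with 31, and PAC11, a dynein intermediate chain, with 29. Lower in the order, RAD30, which encodes DNA polymerase eta, held 23, TOP2, the gene of DNA topoisomerase II, 14 and CDC13, the gene of a telomere-binding protein, 13. They were not taken by rank, and many ORFs not named here held as many or more.

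Genes for tRNAs, which are short and are transcribed by RNA polymerase III, also held sites. Among tRNA genes wholly in the eligible length, 73 (54.1%, 95% Wilson interval 45.7% to 62.3%) had at least 1 site within the gene, with a median of 6 sites where there were any and a maximum of 18. These 430 sites had a median of 14 hits and made up 2.06% of all sites. They carried 1.72% to 2.37% of the hits at sites in the 5 SPO11+ replicates, against 1.40% in spo11-Y135F. Sites chosen without a replicate and read in it had 8.29, 12.2, 8.68, 9.77 and 8.03 times the hits of their flanks in SPO11+ replicates 1 to 5, whereas spo11-Y135F gave 0.868 to 1.01 at the same sites. Reads with more than 1 possible position were kept in the alignment, and tRNA genes occur in near-identical copies, so hits there may be shared between copies. Of the convergent-gap sites, 65 (7.94%) were inside tRNA genes.

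Density by distance was 45.2 pairs per kb in the first 100 bp from a hot stretch, 12.6 from there to 250 bp, 5.16 to 500 bp and 2.71 to 1000 bp. Among the sites it was 3.03 per kb up to 2000 bp, 3.93 from there to 3000 bp, 3.87 to 5000 bp, 3.73 to 10000 bp and 2.86 beyond. In promoter-containing gaps alone it was 23.8, 24.4, 20.3, 16.1 and 8.01 over the same 5 distances, so that it was lowest in the promoters farthest from hotspots. These gaps made up 32.1% of the length beyond 10000 bp, against 9.92% up to 2000 bp. Wide gaps were sparser, with 9.40 sites per kb in tandem gaps of 800 bp or more against 32.4 from 200 to under 400 bp. The part of gap width and of chromosome ends in the decline was not tested. By chromosome, density ranged from 2.54 per kb on IX to 4.12 on I. It was 1.35 per kb in the 10 kb at chromosome ends, 2.54 at 10 to 20 kb and 3.59 beyond 100 kb.

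Each site was examined for hits in every SPO11+ replicate. A hit on either strand was found in 5 of 5 replicates at 11998 sites (57.4%), in 4 at 6715, in 3 at 2006, in 2 at 181 and in 1 at 5. Hits on both strands in each of the 5 replicates were found at 2119 sites (10.1%). Support rose with the hits of a site, with 28.4% of those with 8 to 11 hits found in 5 of 5 replicates, 52.1% at 12 to 15 hits, 79.9% at 16 to 31 hits and 98.4% at 32 or more. Replicate 2 supplied 41.0% of the hits at sites and 36.6% of all SPO11+ hits, and alone gave more than 50% of the hits at 4024 sites (19.2%). It had a hit at 99.4% of the sites, and the other replicates at 84.5% to 90.5%. The 5 sites with hits in a single replicate, named after their values were seen, were all in tandem gaps. Between PFF1 and ECM8, RPL34B and MMF1, and TIM54 and PEP8, they had 8, 12 and 9 hits from replicate 2 alone. Between AVT1 and MPP10 and between CSR1 and CTF3, they had 10 and 9 hits from replicate 3 alone.

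Because the rule used the sum of these hits, support was measured again in a replicate that took no part. The sites were chosen from the other 4 replicates by the same rule, which gave 18124, 12148, 16504, 17622 and 17389 sites with replicates 1 to 5 left out. Hits per strand position at these sites were then set against the positions 11 to 100 bp away on the same strands. The ratio was 8.15, 10.9, 7.97, 8.42 and 7.79 in SPO11+ replicates 1 to 5, a mean of 8.65 ± 1.30 (SD, n = 5), against 1.15 ± 0.0143 over the same 5 sets of sites in spo11-Y135F. On the log2 scale the SPO11+ ratio was 3.10 ± 0.20 and above 0 in 5 of 5 replicates (two-sided exact sign-flip test, p = 0.0625, the smallest possible). A comparison of 5 SPO11+ replicates with 1 control library cannot give an exact p below 0.167. Since most sites have other sites in their flanks, the ratio sets a site against its cluster and not against cold sequence.

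Hits were found on both strands at 39.5%, 84.3%, 48.0%, 43.0% and 39.3% of the sites in the left-out replicates 1 to 5, against 3.58%, 9.59%, 4.54%, 3.84% and 3.55% at positions moved by 50 bp. The replicate with the highest share, replicate 2, was the deepest, and replicates 1 and 5, with the lowest shares, were among the shallowest. At least 1 hit was found at 82.0% to 98.9% of sites. Across sites, the hits that chose a site and those in the left-out replicate had Pearson's r of 0.741 to 0.861, as a description, since sites of a chain are not independent. Over all sites, r between the HpM of 2 replicates was 0.588 to 0.735, and over chains on a log2 scale it was 0.955 to 0.972. Unlike the left-out values, these come from hits that helped to choose the sites. Chains also differ in their number of sites, so a high r over chains in part reflects chain size and is a description only.

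**Figure D3:**
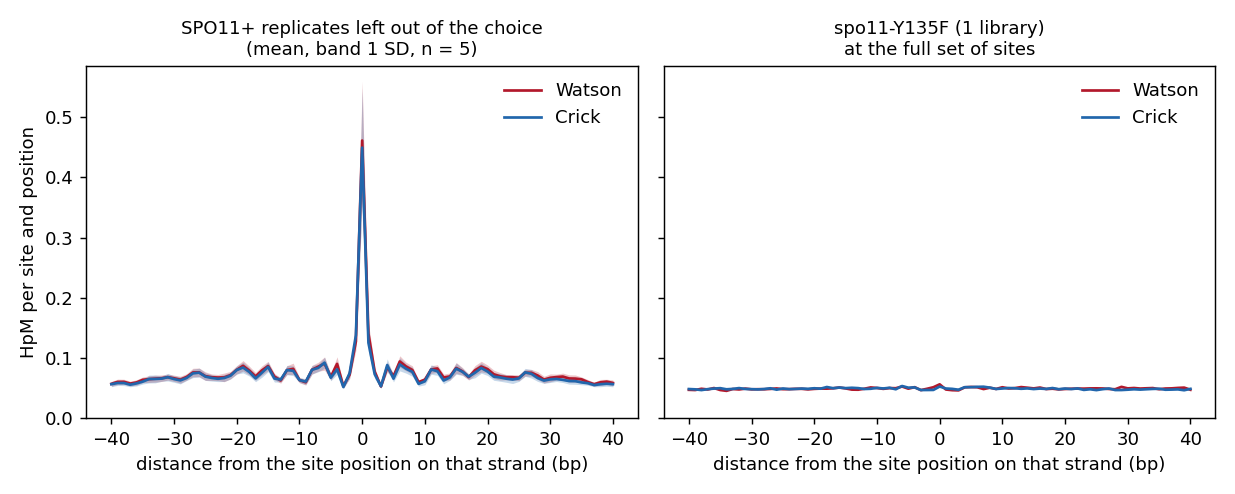
Mean HpM per site and position from -40 to 40 bp around the site on the Watson and Crick strands, in SPO11+ replicates that took no part in choosing the sites (left, mean and SD of 5 replicates) and in spo11-Y135F at the full set of sites (right). SPO11+ reaches 0.461 HpM on Watson and 0.450 on Crick at the site, while spo11-Y135F stays near 0.05 HpM throughout.

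In the left-out replicates, the mean at the site itself was 0.461 ± 0.0986 HpM on Watson and 0.450 ± 0.0983 on Crick (SD, n = 5), against 0.0563 and 0.0527 HpM in spo11-Y135F at the full set. At 1 bp to either side SPO11+ had 0.125 to 0.141 HpM and spo11-Y135F 0.047 to 0.0515 HpM. At 3 bp SPO11+ was down to 0.0518 to 0.0533 HpM, and at 4 bp above the site it was 0.0849 on Watson and 0.0883 on Crick, so that the decline around a site was not smooth. The ratio of site to flank increased with the hits that chose the site, being 4.63 at 8 to 11 hits, 6.35 at 12 to 15, 9.82 at 16 to 31 and 21.8 at 32 or more (means of 5 replicates). It was 8.51 in divergent gaps, 8.57 in tandem gaps, 9.48 in convergent gaps and 9.39 in ORFs. The ORF ratio exceeded the divergent ratio in 5 of 5 replicates, by 0.14 ± 0.024 on the log2 scale (two-sided exact sign-flip test, p = 0.0625). The level at the site itself ran the other way, with 0.942 HpM per site in divergent gaps, 0.923 in tandem gaps, 0.800 in convergent gaps and 0.805 in ORFs, and it was lower in ORFs than in divergent gaps in 5 of 5 replicates. Both strands were hit at 53.8% and 50.9% of the sites in divergent and tandem gaps, and at 46.2% and 44.7% in convergent gaps and ORFs (means of 5 left-out replicates).

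In spo11-Y135F, 78.6% of the 20905 sites had no hit, and none had over 10. The share with a hit, 21.4%, was near the 19.9% of pairs inside hot stretches and the 20.4% of pairs in the bottom quartile of hotspots. Hits on both strands were found at 1.34% of the sites, against 1.04% at positions moved by 50 bp. The ratio of site to flank was 1.14 (95% interval, 1.11 to 1.18, counting error only). This interval takes hits as independent, although neighbouring sites share flank hits, and 1 library gives no spread between cultures. Whether the small excess over 1 is real was therefore not tested. By region the ratio was 1.11 in divergent gaps, 1.15 in tandem gaps, 1.09 in ORFs and 1.47 in convergent gaps (1.298 to 1.654). By the hits of a site it was 1.11 at 8 to 11, 1.13 at 12 to 15, 1.16 at 16 to 31 and 1.21 at 32 or more. The intervals were 1.06 to 1.16 in the lowest of these classes and 1.13 to 1.30 in the highest. At pairs inside hot stretches the ratio was 1.07. Clusters called in spo11-Y135F by the same threshold held 40 sites in 22 clusters, and without them the ratio was 1.14. At 1623 sites (7.76%) the spo11-Y135F rate per library hit was at or above that of SPO11+, of which 1396 had 8 to 11 hits and none had 32 or more. This split was largely set by depth, with 2326054 control hits against 23372366 in SPO11+. A single control hit sufficed at the sites with the fewest hits, while a site with 32 or more needed several. The rates are set across libraries and are given as values only.

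The offset that defines the sites was compared with others in the same territory. With Crick 1 bp above Watson, 20905 pairs of 8 hits or more were found in SPO11+, against a median of 9624.5 over the 200 other offsets from -100 to +100 bp (range, 7228 to 16046), a ratio of 2.17. The next highest count, 16046, was at an offset of 0. The ratio was 2.12 in promoter-containing gaps, 2.45 in convergent gaps and 2.42 in ORFs, and 2.47 at 12 hits or more. In spo11-Y135F, with a minimum of 3 hits, 7840 pairs at +1 bp stood against a median of 7426, a ratio of 1.06. The count at +1 bp was above that at each other offset in promoter-containing gaps as a class, in convergent gaps and in ORFs. Since the median of other offsets is not 0, a pair at +1 bp need not be a double-strand break.

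**Figure D4:**
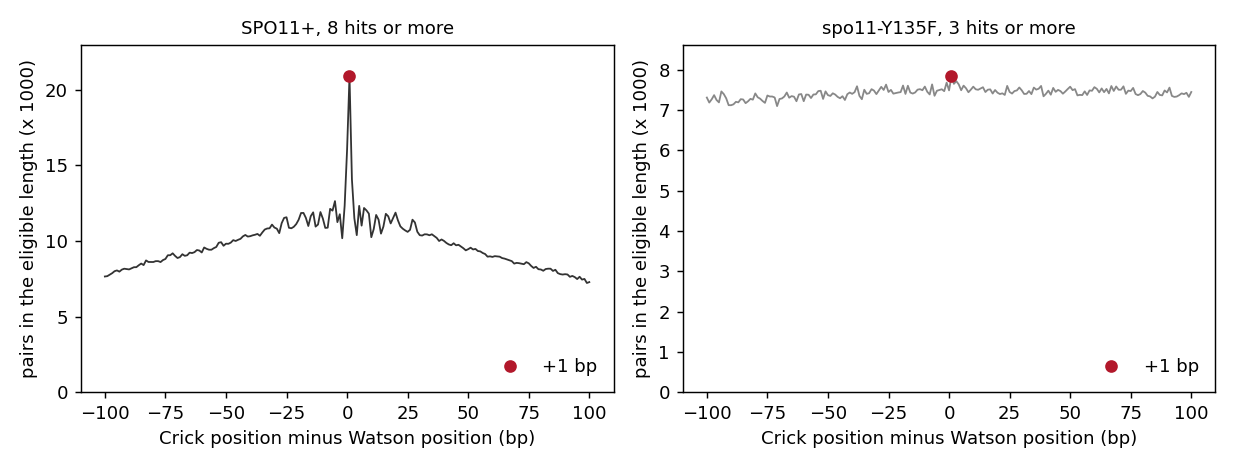
Number of position pairs in the eligible length, in units of 1000, against the Crick position minus the Watson position (bp), for SPO11+ with 8 hits or more (left) and spo11-Y135F with 3 hits or more (right). The point marks +1 bp, with 20905 pairs in SPO11+ against a median of 9624.5 at other offsets, and 7840 in spo11-Y135F against 7426.

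The spacing of neighbouring sites was short. The next site lay a median of 7 bp away, with quartiles of 3 and 18 bp. It was 1 bp away for 18.7% of sites, 2 bp for 6.21%, 3 bp for 3.46%, 4 bp for 7.95%, 5 bp for 4.25% and 6 bp for 6.42%, and 9 bp for 2.19% but 11 bp for 3.02%. Spacings of 3, 5 and 9 bp were each less frequent than those 1 bp shorter or longer. Inside hot stretches, 52.3% of pairs had the next pair 1 bp away, and at 1 to 1000 bp from one 15.0% did. In the latter set, spacings of 3 and 5 bp were also less frequent than those 1 bp shorter or longer. By region, chains mainly in divergent gaps had a median of 12 sites (394 chains), those in tandem gaps 10 (1064), those in convergent gaps 4 (124) and those in ORFs 3 (348). Single sites made up 9.90%, 8.27%, 28.2% and 30.5% of the chains in the same order.

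Strand disparity was scored with an exact test of Watson against Crick hits at each site, two-sided and conditional on their sum. Hits were summed over replicates and taken as independent, so the spread between replicates did not enter. At p of 0.05 or less, 4722 sites (22.6%) were called, against a background of 33.8% over all 275512 pairs, and with Benjamini-Hochberg adjustment over all pairs 2755 (13.2%) were called against 23.7%. The share followed the number of hits. It was 8.85%, 20.8%, 30.8% and 46.0% at 8 to 11, 12 to 15, 16 to 31 and 32 or more hits, against 10.9%, 24.3%, 34.4% and 56.3% for pairs inside hot stretches and 8.66%, 20.9%, 30.7% and 47.3% for those in the bottom quartile of hotspots. Pairs at 1 to 1000 bp from a hot stretch gave 10.8%, 25.0%, 33.7% and 49.5% in the same classes. None of the 2594 sites with exactly 8 hits could be called. The rule asks for a hit on each strand, and 7 hits against 1 give p = 0.0703 in this exact test. The share in the lowest class was thus in part fixed by the rule. Watson was higher at 2477 of the called sites and Crick at 2245, and Watson carried 50.6% of the hits at sites.

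The strongest site had 215 hits and lay at chromosome IV 907170 (Watson, coordinates of the Cer3H4L2 build), in the divergent gap between MFB1, which encodes a mitochondria-associated F-box protein, and GTB1, the gene of the glucosidase II beta subunit. It had 28, 81, 33, 46 and 27 hits in SPO11+ replicates 1 to 5, against 1 in spo11-Y135F. This was 9.22 ± 2.25 HpM (SD, n = 5), against 0.430 HpM. The next, with 214 hits at VII 401453, lay between ERV14, the gene of a cargo receptor of ER to Golgi vesicles, and PRM8, and had 31, 84, 53, 30 and 16 hits against 0. At this site Crick had 169 hits and Watson 45 (exact binomial test, p = 4.35e-18, adjusted p = 2.69e-16). The test takes each summed hit as independent, so its p covers counting error and not the spread between replicates.

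The third, with 59 Watson and 142 Crick hits at XIV 764171, lay between BSC5 and PDR18, the gene of an ABC transporter, with 11.8 HpM in SPO11+ replicate 2 and 5.98 to 7.30 HpM in the other replicates, against 0.430 HpM in spo11-Y135F. Replicate 2 stood apart here. Of the strongest sites described here, the most even across replicates in HpM was XV 101288, between MSN1, the gene of a transcriptional activator, and PAP2, which encodes the TRAMP poly(A) polymerase, with 22, 80, 36, 30 and 32 hits against 0 (8.33 ± 0.94 HpM). The least even of them was VIII 472658, between GND1, the gene of 6-phosphogluconate dehydrogenase, and SSP1, a gene needed for spore formation, with 38, 90, 22, 23 and 11 hits against 0 (7.38 ± 3.75 HpM). A further 4 of the strongest had 179 to 188 hits and also lay in tandem gaps, between LYS4 and PRP42, MRP49 and TPK3, TPH3 and CCT3, and RPL27B and TRS31. All 9 of these sites were hit on both strands in 5 of 5 replicates, and no spo11-Y135F value among them exceeded 1 hit. Both the SPO11+ level and the support of these sites were used to pick them, so these values are a description. Among the 100 strongest sites, 92 were in promoter-containing gaps, 4 in convergent gaps and 4 in ORFs. Of these 100, 85 had no spo11-Y135F hit, where 78.6% of all sites had none. Over the whole set the control did not fall with the hits of a site. The share of sites with a control hit was 20.8% at 8 to 11 hits and 23.0% at 32 or more.

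**Figure D5:**
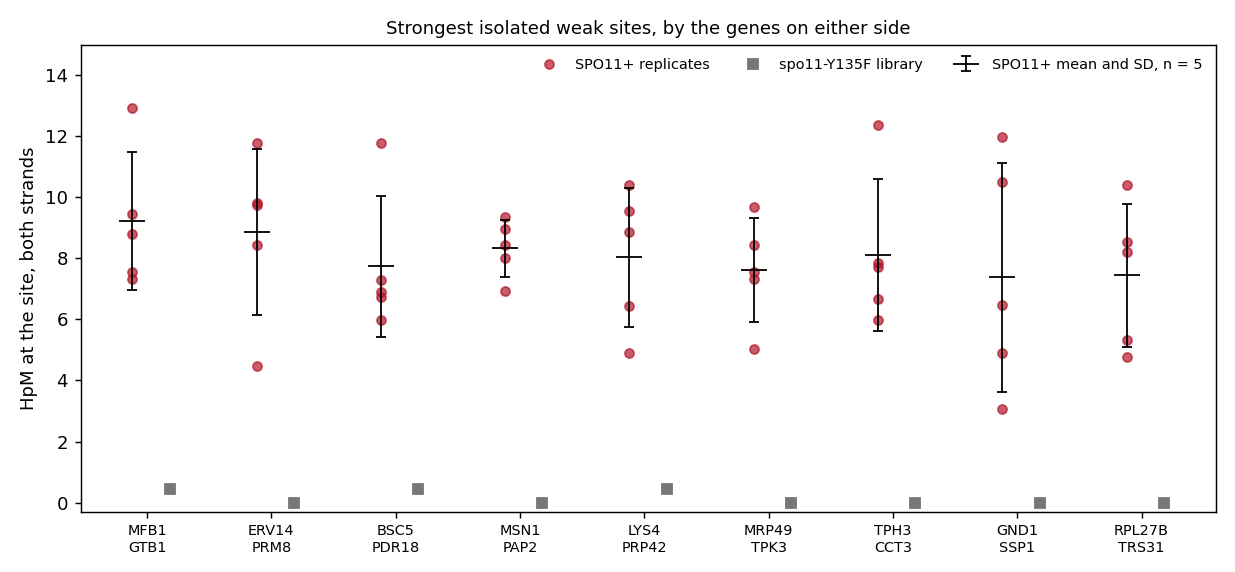
HpM of both strands at 9 of the strongest isolated weak sites, named by the genes on either side, in the 5 SPO11+ replicates (points, with mean and SD) and in the single spo11-Y135F library (squares). The first site has a mean of 9.22 HpM in SPO11+ and 0.430 HpM in the control, and the SPO11+ levels are those by which the sites were picked.

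The strongest sites outside promoter-containing gaps reached somewhat lower levels. In convergent gaps, XIV 230854 between SSU72, the gene of an RNA polymerase II phosphatase, and POP1, which encodes a subunit of RNase P and RNase MRP, had 12, 61, 26, 23 and 19 hits against 0. VII 545083 between ERV1 and POP6 had 20, 53, 25, 28 and 11 against 0, and V 435710 between GLC7, the gene of the protein phosphatase 1 catalytic subunit, and YER134C had 15, 63, 18, 22 and 17 against 0. In ORFs, IV 976738 in SWM1, which encodes a subunit of the anaphase-promoting complex, had 12, 46, 25, 25 and 26 against 0. IV 731542 in HPR1, the gene of a THO complex subunit, had 26, 50, 23, 11 and 21 against 0. XV 787071 in MET7, the gene of folylpolyglutamate synthetase, had 18, 52, 23, 15 and 13 against 2. All of these were hit in 5 of 5 replicates, with 121 to 141 hits in all.

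The chain with the most sites, 110 over 807 bp, ran from IV 976082 to 976888. Of these, 89 were in the tandem gap between YAP6, which encodes a bZIP transcription factor, and SWM1, and 21 in SWM1. Its span carried 136, 159, 133, 216 and 115 HpM in SPO11+ replicates 1 to 5 (152 ± 39.1, SD), against 79.96 HpM in spo11-Y135F. The smoothed map reached 2.62 times the genome mean in it, under the threshold of 3. The next, with 61 sites over 750 bp at XVI 141565 to 142314, lay wholly in BMS1 and carried 102, 89.7, 100.2, 59.6 and 94.98 HpM against 79.5. Replicate 4 was the lowest, and the only one below the control value. Since background makes a higher HpM in spo11-Y135F than in SPO11+, these values do not place the chain at the control level.

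A chain of 57 sites at XVI 922969 to 923609 ran from HPA2, which encodes an acetyltransferase, into the gap towards OPT2, with 83.4 ± 6.87 HpM against 65.8. Another of 57 sites lay at V 261298 to 261834 between YER053C-A and GIP2, with 79.5 ± 21.2 HpM against 49.4. The last of the 5, with 56 sites at XVI 575614 to 576311 between HAA1, which encodes an activator of the response to weak acids, and SUT2, had 85.0 ± 9.26 HpM against 61.5. These levels come from the hits that made the chains, so they describe them and do not test them against the control. All 5 chains had a smoothed maximum of 2.29 to 2.68 times the genome mean, close to the threshold that separates them from hotspots.

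At the other end, the 3 sites farthest from a hot stretch, at 43856 to 43895 bp, were at IV 1521009, 1521020 and 1521048 between YDR541C and PAU10, a gene of the seripauperin family, in a chain of 4. They had 10 hits each, found in 3 or 4 of 5 replicates. In that order they averaged 0.339, 0.425 and 0.500 HpM in SPO11+, against 0.860, 0.430 and 0 HpM in spo11-Y135F, from 2, 1 and 0 hits. The sites with the most spo11-Y135F hits were I 12739 between YAL064W-B and TDA8, with 8 SPO11+ hits in all against 10, XII 929689 between SEI1 and DUS4, with 13 against 8, and XV 58677 between PPM2 and ARG8, with 14 against 7. In HpM, SPO11+ averaged 0.407, 0.574 and 0.507 at these sites, below the 4.30, 3.44 and 3.01 HpM of spo11-Y135F. These sites were picked for their spo11-Y135F hits, so the direction was fixed by the choice.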

How the data were processed

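The deposited values of the 7 single maps are raw counts of hits, the protein-linked 5′ ends per nucleotide and strand. The authors aligned read pairs with bowtie2 to Cer3H4L2 and took repeated sequence such as rDNA and transposons out of the maps, along with telomeres. An average map by the authors was not used, and no column belonged to an unmapped sample (0). Counts were scaled to HpM, hits per 1000000 hits of a library. Runs of over 200 bp without a hit in any library were taken as masked, and the genome mean was taken over unmasked positions. ORFs and gene names came from a table of 6002 protein-coding genes with a strand in assembly R64, of which no coordinate is given. Computation used pandas 2.3.3, scipy 1.17.1 and numpy 2.4.6 under Python 3.11.15, with matplotlib 3.10.9 for plots, and was tested on simulated data.

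The sites and lists were chosen with earlier results of these data known. Sites were named by a rule: the 10 with the most hits among those hit in 5 of 5 replicates, the 3 strongest of each region type, the 5 chains with the most sites, the 3 farthest from a hot stretch and the 3 with the most spo11-Y135F hits. Of the 10, 1 is not reported here. No sequence was used, since no genome was at hand. The labels call the replicates biological replicates but do not say how the cultures were related. Intervals cover counting error only, and PCR copies cannot be told from separate molecules. Alternatives covered the hit minimum, distance, threshold, window, flanks, chromosome III, masked runs, chromosome ends and each replicate left out.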

Additional observations from a re-analysis of the deposited data

Results flagged for a closer look

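Among 41 measures of the 5 SPO11+ replicates, 6 had a replicate farther from the others than a Dixon test at its 95% critical value allows. Chance flags about 1 in 20 such groups, or 2.05 here, and several of the measures share hits, so they are not independent. The total of replicate 2 was 8564017 hits, with the others between 3177210 and 4502308. Its ratio of site to flank at sites chosen without it was 10.9, with the others at 7.79 to 8.42, and it had both strands hit at 84.3% of those sites, with the others at 39.3% to 48.0%. The density of its hits in chains drawn without it was 15.0 times that of the rest of the eligible length, with the others at 5.95 to 8.15. The site sets behind these values differ. With the deepest replicate left out, the same minimum of 8 hits gave 12148 sites, against 16504 to 18124 for the others. At the site between BSC5 and PDR18 (XIV 764171), replicate 2 had 11.8 HpM, with the others at 5.98 to 7.30. In the chain within BMS1 (XVI 141565 to 142314), replicate 4 had 59.6 HpM, with the others at 89.7 to 102.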

How the results depend on the processing

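The number of sites, 20905, followed the rule. It was 12950 at 12 hits or more, 8838 at 16 hits or more, 13135 beyond 2000 bp, 10372 and 43416 with thresholds of 2 and 5 times the mean, and 13711 and 36238 with a narrower and a wider smoothing window, of about 100 and 400 bp. Without 1 replicate it was 12148 to 18124, with the low value for replicate 2.

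The share in promoter-containing gaps, 84.8%, moved to 86.4%, 87.2%, 88.9%, 80.4%, 87.2%, 82.4% and 87.1% under these settings in the same order, to 78.8% beyond 500 bp, to 83.3% with chromosome III and to 87.6% with 100 bp taken off both ends of ORFs. Leaving out a replicate gave 85.2% to 86.4%. The share with a neighbour within 200 bp, 98.7%, moved in the same order to 97.9%, 96.8%, 98.8%, 97.8%, 99.3%, 98.2% and 99.1%, to 98.5% beyond 500 bp and to 98.8% without 20 kb of each chromosome end. It was 98.3% for neighbours within 100 bp and 99.1% within 500 bp, and 97.6% to 98.6% without a replicate. With the genome mean over masked positions too, a setting chosen after seeing the data, the count was 19330, with 84.3% in promoter-containing gaps and 98.7% with a neighbour.

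Support in all replicates, 57.4%, was 10.1% when both strands were required, and 70.9% to 81.2% with 4 replicates. The ratio of left-out replicates, 8.65, was 21.2 against flanks to 500 bp and 11.2 at 12 hits or more, and 8.08 to 8.87 without a replicate. The spo11-Y135F ratio, 1.14, was 1.23 with flanks to 500 bp, and 1.14 to 1.18 at sites chosen without a replicate. Disparity calls fell to 2755 after Benjamini-Hochberg adjustment, against 4722, and the offset ratio of 2.17 was 2.47 at 12 hits or more. No direction changed under any setting run. No paired analysis was possible because the control is 1 library. Depth limits the sites with few hits, and sites under 8 hits were not examined.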
